A study of Mus musculus with 22 samples.

Results

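Distal intergenic regions occupied by RNA polymerase II (PolII) were taken from 14 post-mitotic PolII ChIP-seq peak lists of the mouse erythroblast line G1E-ER4. Peaks that overlapped by at least 1 bp were merged across the 14 lists into 169774 regions, and 39416 autosomal regions were detected in 7 or more lists. Of these, 1525 (3.87%) lay at least 10000 bp from every gene of any biotype in GENCODE vM1 (mm9) and are the members described here. Since they were chosen by detection in the 14 lists, their detection there is a description and not a result. They are candidate enhancers by position alone, since no chromatin mark was measured in these libraries.

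G1E-ER4 derives from G1E, a proerythroblast line without GATA1, and carries the erythroid factor GATA1 fused to the hormone-binding part of the estrogen receptor, and the protocols name no hormone to activate it. All samples shared the tagging of both CTCF alleles with an auxin-inducible degron and mCherry and carried the auxin receptor OsTiR with GFP on a retroviral vector, so each control group bears the same modifications as its auxin group. Cells were arrested with nocodazole at 200 ng/ml and harvested after 0 (prometaphase), 60 (early-G1), 120 (mid-G1) or 240 min (late-G1), without auxin (control) or with auxin given in mitosis and kept through release, and were sorted by DNA content and by high (control) or low (auxin) mCherry. There were 2 libraries in each control and each auxin group at prometaphase, early-G1 and late-G1, and 3 in each at mid-G1. A single engineered line was used throughout, the study calls the libraries of a group biological replicates without saying what separates them, and the p-values below measure only the spread between these libraries. Chromosome 3 of this line carries a translocation by the study's methods, and 135 members lie on it.

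PolII leaves most of the genome in mitosis and returns as cells enter G1. Away from genes, PolII is found at enhancers, where it makes short unstable transcripts, at promoters of transcripts missing from an annotation, and along extended or read-through transcripts. CTCF, the factor removed by auxin, blocks cohesin at the edges of chromatin loops and thereby shapes which enhancers and promoters meet.

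The libraries held 50594 to 117125 peaks after mitosis and 2414 to 3918 in prometaphase. Background coverage recovered from the peak statistics ran from 4.51 to 13.3 reads per kb, with the lowest value in mid-G1 control replicate 1, the library that stood apart. It detected 763 members, against 1114 to 1459 in the other 13 post-mitotic lists. Of 14 erythroid progenitor markers, 11 had a region over a coding transcription start site (TSS) in all 14 lists, Zfpm1 in 13, the beta-globin gene Hbb-b1 in 4 and the anion exchanger gene Slc4a1 in 0. None of 18 markers of other cell types had a TSS region in any list.

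Sequences of 300 bp around the summit are given for members that the results below turn on. Capitals mark matches, on either strand, to short words bound by erythroid and general factors. The word for the GATA factors was AGATAA, for the E-box of TAL1 it was CAGATG, for ETS factors GGAAGT and for RUNX factors TGTGGT. For AP-1 it was TGANTCA, for KLF factors CCNCNCCC and for the cyclic AMP response element TGACGTCA, and the CTCF core was searched as well. None of the words spelled out here contains another, and a match is a description, not a bound site. The first is the best ranked member, which was also detected in every prometaphase list. The next is the best ranked member that changed with auxin, and the third is the best ranked member whose nearest coding gene is a hematopoietic regulator. The last 3 were chosen after their values were seen, for the largest rise in G1, for the position near Kit and for detection in control lists only. Coordinates are mm9, and the plus strand is shown.
Dennd4b member, chr3:90096535-90096834: aggccttgggcagaacggggcaggCCACA21.7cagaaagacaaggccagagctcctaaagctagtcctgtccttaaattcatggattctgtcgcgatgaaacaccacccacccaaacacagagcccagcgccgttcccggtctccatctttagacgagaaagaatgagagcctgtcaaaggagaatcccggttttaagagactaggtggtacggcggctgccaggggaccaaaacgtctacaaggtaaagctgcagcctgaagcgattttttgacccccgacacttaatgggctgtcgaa
Ptma member, chr1:88400743-88401042: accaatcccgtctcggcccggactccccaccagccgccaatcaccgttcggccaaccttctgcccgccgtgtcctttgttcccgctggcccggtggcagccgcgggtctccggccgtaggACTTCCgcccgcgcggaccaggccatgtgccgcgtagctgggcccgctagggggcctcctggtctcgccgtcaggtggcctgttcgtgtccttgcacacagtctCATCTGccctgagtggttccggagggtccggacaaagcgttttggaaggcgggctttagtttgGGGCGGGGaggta
Cebpb member, chr2:167590524-167590823: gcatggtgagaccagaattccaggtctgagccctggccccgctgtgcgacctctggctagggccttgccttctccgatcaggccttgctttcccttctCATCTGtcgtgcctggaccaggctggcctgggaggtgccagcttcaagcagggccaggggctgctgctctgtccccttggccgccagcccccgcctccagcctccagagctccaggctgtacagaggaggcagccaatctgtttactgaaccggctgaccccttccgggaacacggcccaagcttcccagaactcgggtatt
Rplp1 member, chr9:61530201-61530500: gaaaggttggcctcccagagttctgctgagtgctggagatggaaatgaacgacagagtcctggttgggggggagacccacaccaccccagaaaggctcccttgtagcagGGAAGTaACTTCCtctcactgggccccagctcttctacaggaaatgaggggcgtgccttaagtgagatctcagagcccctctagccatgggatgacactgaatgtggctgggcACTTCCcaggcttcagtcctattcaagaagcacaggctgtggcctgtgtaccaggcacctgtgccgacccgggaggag
Kit member, chr5:75856461-75856760: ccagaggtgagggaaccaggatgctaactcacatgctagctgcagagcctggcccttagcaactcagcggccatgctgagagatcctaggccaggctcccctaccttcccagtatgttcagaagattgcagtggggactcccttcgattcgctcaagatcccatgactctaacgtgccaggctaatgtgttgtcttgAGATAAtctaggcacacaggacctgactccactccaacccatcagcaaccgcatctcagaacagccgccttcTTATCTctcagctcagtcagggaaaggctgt
Pmvk member, chr3:89285387-89285686: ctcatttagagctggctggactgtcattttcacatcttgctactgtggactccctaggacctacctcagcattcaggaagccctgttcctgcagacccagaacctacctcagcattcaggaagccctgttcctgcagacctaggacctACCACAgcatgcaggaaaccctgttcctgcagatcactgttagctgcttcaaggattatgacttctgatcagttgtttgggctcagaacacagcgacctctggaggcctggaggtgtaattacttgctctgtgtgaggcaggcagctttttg
Members are named by the gene of the nearest protein-coding TSS, which does not say that the gene responds to them. The match to the KLF word in the Dennd4b window was CCACACCC, at bases 25 to 32. In the line printed above, a number stands in place of its last bases, CCC. The Kit window held AGATAA on both strands, the Rplp1 window held 3 matches to GGAAGT, and the Ptma window had a GC content of 67.7% and a CpG ratio (observed over expected) of 0.85.

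Members were narrower and closer in level to other non-promoter regions than to promoters. Their median width was 913 bp (middle 50% of members, 599 to 1531; range, 181 to 20824), against 2020 bp for 8600 regions over a coding TSS and 1346 bp for 22336 regions within genes. Fold enrichment, the summit pileup over local background that the authors' peak caller wrote, had a median over members of 6.95, with 20.5 at coding TSSs, 5.66 within genes and 6.11 for 4950 intergenic regions less than 10 kb from a gene. The summit was covered by a median of 19 reads in members and 54 at coding TSSs. Of all members, 552 (36.2%) were detected in all 14 lists and 151 in exactly 7. The 151 at the threshold had a median fold enrichment of 5.30 and a median width of 586 bp, and the 151 distal regions in exactly 6 lists, just outside it, had 5.11 and 543 bp.

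Distance from genes was wide. The nearest coding TSS lay a median of 38082 bp away (middle 50%, 21072 to 71582), and 65.2% of members lay upstream of it. The nearest gene of any kind was less than 20 kb away for 646 members (42.4%) and more than 100 kb away for 117 (7.67%). It turned its 3' end to 766 members and its 5' end to the rest. The 3 farthest members were a region 463 kb from the cadherin gene Cdh9 (chr15:16244335-16245297), detected in 14 lists at a median fold enrichment of 5.90, a region 428 kb from any gene whose nearest coding TSS is that of Arpp21 (chr9:112852661-112853383), detected in 8 lists at 5.32, and a region 404 kb from Gm7536 (chr3:23826331-23827969), detected in 14 lists at 11.6. Members fell into 976 loci when those within 20 kb were joined, of which 693 held a single member and 34 held 5 or more.

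Some members are promoters by later annotation. RefSeq promoter sequences of the GRCm38 build, matched by sequence because the builds differ, lay inside 98 members (6.43%), 29 of them with a protein-coding and 70 with a lncRNA promoter. Those 98 had a median rank of 8985 among the regions of a library (rank 1 is the highest fold enrichment), and the other 1427 had 18618. Of the 50 best ranked members, 12 held such a promoter, 22 had a CpG ratio above 0.6, and the median GC content was 56.8%. Over all members, 9.25% had a CpG ratio above 0.6, against 76.0% at coding TSSs and 2.34% within genes.

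The best ranked members reached promoter levels. The region chr3:90095058-90099482, 15.7 kb from the TSS of Dennd4b, had a median rank of 333 and held the RefSeq promoter of Gatad2b, a subunit gene of the NuRD complex. Its fold enrichment was 49.4 and 50.1 in early-G1 control, 54.0 and 58.3 in early-G1 auxin, 30, 49.5 and 50.4 in mid-G1 control, 61.1, 59.6 and 55.9 in mid-G1 auxin, 51.3 and 47.2 in late-G1 control and 44.4 and 49.6 in late-G1 auxin. In fold enrichment, auxin lay above control without overlap in early-G1 and mid-G1, and the conditions overlapped in late-G1. On the rank within a library, which the test used, the conditions overlapped at every stage. Neither the auxin contrast nor the early-G1 to late-G1 contrast passed the test for this member (adjusted p of 0.61 and 0.67 by limma). The next were regions nearest to Rpl30-ps6 (chr1:88382428-88389632, median fold enrichment 46.6), Gm5218 (chr15:81351789-81355002, 45.7), the channel gene Trpm1 (chr7:71192367-71195514, 42.1) and the phosphatase gene Ppm1a (chr12:73944197-73945961, 41.2). The last held the promoter of the lncRNA gene Gm40441, and the sixth, nearest to 1700018B24Rik at 452 kb (chr3:48865110-48867732, 38.8), held that of Gm31415. The widest member, 20824 bp (chr7:5578838-5599661), lay 15.9 kb from the vomeronasal receptor gene Vmn1r61 and had a median fold enrichment of 36.2. Members nearest to the cyclin gene Ccnl1 (chr3:65777403-65780108, 40.3), the actin gene Actg1 (chr11:120176633-120178829, 40.0) and Prrc2b (chr2:31992280-31993805, 38.1) completed the 10 best. None of these 10 passed the test between early-G1 and late-G1 or with auxin. Between the steps, the Rpl30-ps6 member fell by 1.79 from early-G1 to mid-G1 and rose by 1.87 from mid-G1 to late-G1 (adjusted p of 0.00063 and 0.00076 by limma), and the Actg1 member fell by 1.23 and rose by 1.93 (0.030 and 0.0040).

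Some motifs, but not all, differed in share between the summit windows of members and those of promoters, in description. AGATAA occurred in 24.3% of member windows, in 17.0% of nearer intergenic windows, in 16.7% within genes and in 5.41% at coding TSSs. GGAAGT occurred in 30.2%, 23.1%, 19.7% and 28.6% in the same order, TGTGGT in 26.8%, 23.9%, 25% and 12.1%, and TGANTCA in 13%, 10.1%, 9.33% and 4.41%. CAGATG was in 19.5% of member windows, below the 23.5% and 23.3% of nearer intergenic windows and windows within genes and above the 11.4% at coding TSSs. CCNCNCCC was in 35.4% of member windows, 27.2% of nearer intergenic windows, 21.5% within genes and 61.5% at coding TSSs. TGACGTCA was in 8 members (0.52%) and in 2.90% of windows at coding TSSs. The CTCF core was in 7 members (0.46%) and in 0.48% of windows at coding TSSs. A pattern this rare in every class does not show how many windows hold a CTCF site. Among the 50 best ranked members AGATAA was in 4.00%. GC content moved with these shares, at a median of 49.0% in members, 47.7% and 46.7% in the nearer intergenic and gene classes and 63.7% at coding TSSs; its part in them was not tested.

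**Figure D1:**
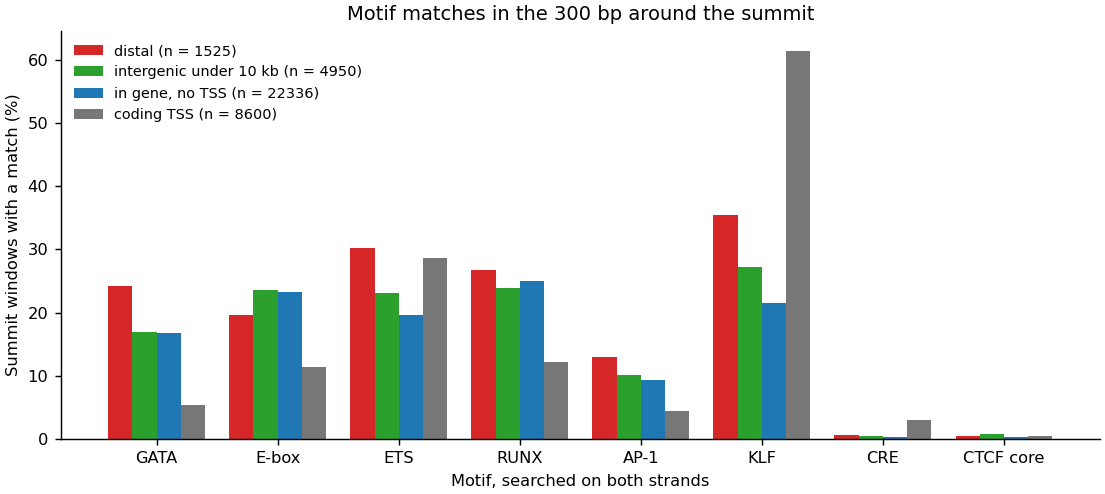
Share of 300-bp summit windows (vertical axis, %) that match each motif on either strand (horizontal axis), for 4 classes of region detected in 7 or more lists. Members (red) match GATA in 24.3% of windows and coding TSSs (grey) in 5.41%, and the CTCF core is below 1% in each class.

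In prometaphase few members were detected. The 4 prometaphase lists, which the selection did not use, held 42 and 30 members in control and 40 and 34 in auxin, so the conditions overlapped. In all, 78 members (5.11%) had a prometaphase peak in at least 1 list, beside 28.4% of coding TSS regions, 2.35% of regions within genes and 3.21% of nearer intergenic regions. The 78 had a median width of 2529 bp and held AGATAA in 5.13% of windows. A later RefSeq promoter lay inside 17 of them, beside 98 of all 1525 members. A CpG ratio above 0.6 was found in 21.8% of them, beside 9.25% of all members. There were 16 members detected in all 4 lists, of which the 5 best ranked after mitosis are given here. The first was the Dennd4b member, whose prometaphase fold enrichment was 8.20 and 8.68 in control and 7.15 and 9.26 in auxin. The Gm5218 member had 7.41, 9.19, 7.70 and 4.21 in the same libraries and the Vmn1r61 member 13.7, 9.19, 15.4 and 11.3. A member nearest to Rpl30-ps6 (chr1:88336695-88342280) had 9.29, 7.16, 8.66 and 6.17. The last of the 5 lay 80.4 kb from Vmn1r238 on chromosome 18, at 14.2, 17.4, 15.4 and 12.9, and 46.1% of the 32-base words in its summit window occur more than once in the genome.

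Late-G1 lists held more members than early-G1 lists. Early-G1 lists held 1171 and 1213 members in control and 1161 and 1114 in auxin. Late-G1 lists held 1366 and 1429 in control and 1333 and 1239 in auxin, all above every early-G1 list. The share of regions within genes that was detected ran from 82.9% to 89.6% in early-G1 and from 61.6% to 89.3% in late-G1, where only control replicate 3 was within the early-G1 range. There were 81 members (5.31%) with no early-G1 peak and a peak in all 4 late-G1 lists, and 13 (0.85%) with the reverse. The first pattern held for 0.26% of coding TSS regions, 1.34% of regions within genes and 3.07% of nearer intergenic regions, and the reverse for 0.081%, 1.35% and 1.45%.

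**Figure D2:**
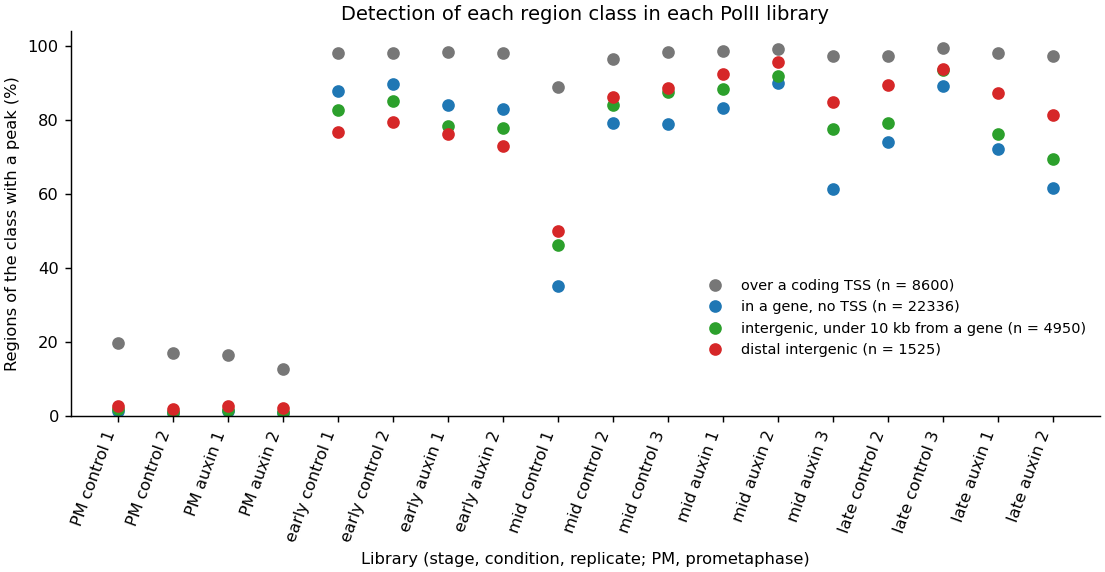
Share of each region class with a peak (vertical axis, %) in each of 18 libraries (horizontal axis), for regions detected in 7 or more of the 14 post-mitotic lists. Members (red) go from 73.0% to 79.5% in early-G1 to 81.2% to 93.7% in late-G1, below regions within genes (blue) in early-G1 and above them in late-G1, and mid-G1 control replicate 1 is low in every class.

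Levels were compared on the rank of a region within its library, as −log2 of the rank, so that a value of 1 is a 2-fold better rank. The test was run on the 15785 regions detected in all 14 lists, 552 of them members; the other 973 members missed at least 1 list and were not tested. From early-G1 to late-G1, averaged over control and auxin, 89 of the 552 tested members (16.1%) ranked higher and 13 (2.36%) lower. Over all tested regions 7.47% were called higher and 7.29% lower. The median difference was 0.30 for members and -0.03 for all tested regions, 0.00 for coding TSS regions, -0.10 within genes and 0.03 for nearer intergenic regions. Calls were 6.89% higher and 7.92% lower at coding TSSs, 6.95% and 7.19% within genes and 10.3% and 7.06% for nearer intergenic regions. The median member ranked between 10225 and 10480 in the 4 early-G1 libraries and between 8287 and 9009 in the 4 late-G1 libraries, with no overlap. Coverage was 7.54 to 11.8 reads per kb in early-G1 and 8.00 to 13.3 in late-G1. The early-G1 lists held 100031 to 107213 peaks, and the late-G1 lists 74154, 80106, 88511 and 117125, so that 3 of the 4 were shorter than every early-G1 list. The part of list length in the rank differences was not tested.

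**Figure D3:**
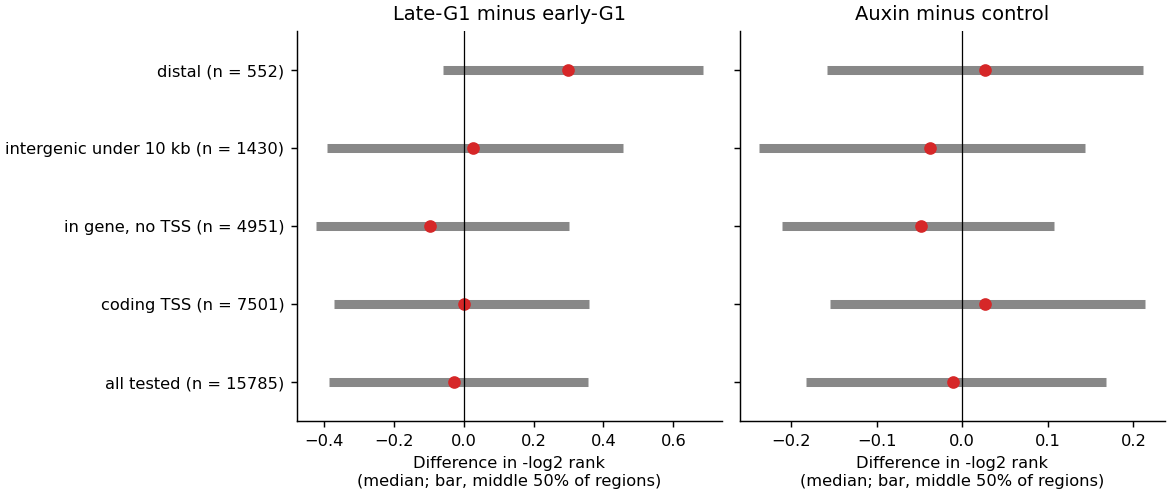
Difference in −log2 rank (horizontal axis; positive is a better rank) from early-G1 to late-G1 (left) and from control to auxin (right) by region class. Red points are medians and grey bars span the middle 50% of regions. Members lie at 0.30 on the left and at 0.03 on the right, and the bars overlap between classes.

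Most of this change fell in the first step. Between early-G1 and mid-G1, 80 members rose and 18 fell, with 7.81% and 6.18% of all tested regions called in those directions. Between mid-G1 and late-G1, 20 rose and 17 fell, beside 3.03% and 3.85%. Of the 89 that rose by late-G1, 52 had already passed the test by mid-G1. Calls in both steps went up and then down for 8 members, down and then up for 7 and up in both for 1. None of the 3 stage contrasts was passed by 400 members. These patterns were counted in members only, so no share over all tested regions stands beside them. Both steps use the same mid-G1 libraries, and the part of those libraries in opposite calls was not tested.

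The largest rise was at chr9:61529973-61530732, 232 kb from Rplp1, which codes for a ribosomal stalk protein. Its fold enrichment was 5.55, 4.72, 4.2 and 3.43 in the 4 early-G1 libraries and 13.4, 20.7, 9.51 and 11.7 in the 4 late-G1 libraries, with no overlap. The rank difference was 2.38 ± 0.26 (SE; adjusted p = 8.8e-05). A member 46.8 kb upstream of Hk2 (chr6:82771219-82772270), the gene of a hexokinase that starts glycolysis, went from 10.7, 7.02, 4.46 and 5.87 to 23.1, 24.2, 20.3 and 18.9, a difference of 2.35 ± 0.29 (SE; adjusted p = 0.00023). The region over the Hk2 TSS rose as well, by 2.43 on the same scale (adjusted p = 0.0012). Members near the coronin gene Coro2b (chr9:62237564-62238009), the RNA-binding protein gene Rbm38 (chr2:172886205-172888130) and the clathrin adaptor gene Ap1m1 (chr8:74792133-74793513) rose by 2.33 ± 0.34, 2.17 ± 0.26 and 2.03 ± 0.44. At Rbm38 the TSS region moved the other way, by -1.44 (adjusted p = 0.019), and the member held the promoters of 2 lncRNA genes, Gm36417 and Gm36462.

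Among the 5 members that fell most, early-G1 levels were mostly high. The member nearest to AB041803 (chr6:31074635-31077069) had a fold enrichment of 25.5, 33.5, 47.4 and 36.0 in early-G1 and of 18.1, 24.4, 18.1 and 18.6 in late-G1, a difference of -1.68 ± 0.38 (SE; adjusted p = 0.0094). A member 54.7 kb from the forkhead gene Foxf2 (chr13:31772397-31778195) went from 30.7, 29.4, 31.3 and 26.4 to 17.1, 21.8, 14.7 and 12.4 (-1.29 ± 0.21). Members near Lrrc33 (chr16:32129216-32131164) and Tmem194b (chr1:52653985-52655777) fell by 1.28 and 1.27, and at Tmem194b the TSS region fell too, by 1.31 (adjusted p = 0.0045). The member near Spsb2, described with auxin below, fell by 1.17 (adjusted p = 0.0080).

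Members and the TSS of their nearest gene did not move together in description. Both were tested for 296 members, of which 159 (53.7%) had the same sign from early-G1 to late-G1. Over 235 distinct genes Pearson's r was 0.06 and Spearman's rho 0.07, across regions measured in the same libraries. For 49 of the 89 members that rose, the nearest TSS was tested; it rose for 1, fell for 4 and did not pass the test for 44. For the other 40 no TSS region was tested.

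Among themselves, tested members rose at shares of 13.5% to 18.7% by distance from a gene and of 10.4% to 21.1% by the sequence features given here. The share that rose was 14.1% of 234 members 10 to 20 kb from a gene, 18% of 206 at 20 to 50 kb, 18.7% of 75 at 50 to 100 kb and 13.5% of 37 beyond. It was 10.4% of 77 members with a later RefSeq promoter and 17.1% of 475 without. With AGATAA it was 18.1% of 127, and without it 15.5% of 425. With TGTGGT it was 21.1% of 147, and without it 14.3% of 405. The differences between these shares were not tested.

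Some of the nearest coding genes were hematopoietic regulators. Of 42 autosomal genes on that list, 14 were nearest to a member, and 36 members (2.36%) had such a gene as the nearest coding gene. These genes make up 0.20% of all autosomal coding genes and are nearest to 0.77% of all regions detected in 7 or more lists. The list of growth and survival genes gave 20 members (1.31%; 0.15% of genes and 0.41% of regions), that of immediate early genes 22 (1.44%; 0.15% and 0.29%) and that of erythroid genes 5 (0.33%; 0.16% and 0.42%). The 14 erythroid progenitor markers gave 9 members (0.59%; 0.066% and 0.16%), and the 18 markers of other cell types gave 2, both nearest to the muscle gene Myod1 (0.13%; 0.085% and 0.015%). Members are a larger share than all regions for every list but the erythroid genes, markers of other cell types included. Of the hematopoietic regulators' 36 members, 11 were tested and 4 rose from early-G1 to late-G1, beside 16.1% of tested members and 7.47% of all tested regions, and none fell or was called with auxin.

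The best ranked of these lay 75.1 kb from Cebpb (chr2:167589501-167592252), the gene of a bZIP factor, with a fold enrichment of 16.4 to 26.1 in early-G1 and 20.8 to 44.9 in late-G1 and a difference of 0.99 ± 0.30 (SE; adjusted p = 0.040 by limma). This call was lost in 12 of 19 alternative settings. Kit, the receptor of the kit ligand that the culture medium contains, was nearest to 3 members. The member 113 kb upstream (chr5:75856007-75857716) had a fold enrichment of 6.70, 5.40, 7.05 and 5.43 in early-G1 and of 12.8, 12.4, 8.34 and 8.62 in late-G1, with no overlap, and rose by 1.28 ± 0.24 (SE; adjusted p = 0.0031). The member 186 kb downstream of the TSS (chr5:76157449-76158736) rose by 1.07 ± 0.32 (adjusted p = 0.038 by limma), while the region over the Kit TSS differed by 0.34 (adjusted p = 0.36 by limma). Of 20 alternative settings, the call of the upstream Kit member was lost in 1 and that of the downstream member in 8. A member 170 kb from the TSS of Ikzf2, which codes for an Ikaros family factor, rose by 1.40 ± 0.39 (adjusted p = 0.027; chr1:69559281-69562072), and another at 184.6 kb differed by 0.07 (adjusted p = 0.88; chr1:69545339-69547980).

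Other regulators had members that did not pass the test or were not tested. A member 160 kb upstream of Cited2, a co-regulator gene, differed by 0.47 ± 0.32 (adjusted p = 0.34; chr10:17281740-17283484), and 6 members in all had Cited2 as the nearest gene. The 2 leading members nearest to Klf13 (chr7:71156344-71157408 and chr7:71159237-71159660) differed by 0.44 and 0.56 (adjusted p of 0.21 and 0.17). The leading members nearest to Meis1 (chr11:19309309-19309614), Runx1 (chr16:93153011-93153726) and Zeb2 (chr2:45027041-45028462) lay 390, 327 and 54.1 kb upstream of the TSS. Each was detected in 13 lists, at a median fold enrichment of 9.76, 8.13 and 8.31, and was not tested. In the Meis1 window 90.3% of the 32-base words were repeated in the genome. Gata2 was nearest to 4 members between 15.8 and 48.6 kb upstream, in 7 to 12 lists at a median fold enrichment of 4.52 to 5.74. At Myb, a member 35.7 kb upstream was in all 14 lists at 6.33 (difference 0.93, adjusted p = 0.071).

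Auxin changed few members. Averaged over the 3 stages, 3 of 552 tested members ranked higher with auxin and 2 lower, beside 0.393% and 0.336% of all tested regions, so the members' shares of 0.54% and 0.36% were near the background. The median difference was 0.03 for members and -0.01 for all tested regions. At an unadjusted p under 0.05 there were 71 members (12.9%), beside 10.9% of all regions. Within early-G1 no member was called by limma (32 at an unadjusted p under 0.05, beside 5.67% of all regions), within mid-G1 3 were higher and 1 lower, and within late-G1 1 was higher. In mid-G1 and late-G1 9.42% and 7.86% of all tested regions had an unadjusted p under 0.05. All tested regions were called at 0.00634% in each direction in early-G1, at 0.12% higher and 0.101% lower in mid-G1, and at 0.0443% higher and 0.0253% lower in late-G1. In no member did the auxin change differ between stages by limma's F test after adjustment (28 at an unadjusted p under 0.05, beside 4.96% of all regions), nor in any of the 15785 regions.

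The 3 that were higher lay upstream of Ptma, Car1 and Ankrd9. The member 20.8 kb upstream of Ptma (chr1:88399598-88402501), the gene of the nuclear protein prothymosin alpha, had a fold enrichment of 25.4 and 19.7 in early-G1 control and 38.4 and 32.7 in early-G1 auxin. In mid-G1 it had 17.6, 24.8 and 32 in control and 42.1, 54.5 and 43.9 in auxin, and in late-G1 20.7 and 31.4 in control and 44.5 and 40.0 in auxin, so auxin was above control at every stage without overlap. The average rank difference was 2.09 ± 0.19 (SE; adjusted p = 4.4e-05). It also rose from early-G1 to late-G1, by 1.12 ± 0.24 averaged over control and auxin. Its ranks went from 1578 and 2340 to 423 and 498 in auxin, and from 3830 and 5354 to 3927 and 4155 in control. The difference of its auxin change between stages had an unadjusted p of 0.0042 and an adjusted p of 0.84 by limma's F test. The Ptma TSS region differed by 0.10 with auxin (adjusted p = 0.91).

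The member 11.8 kb upstream of Car1 (chr3:14790251-14804500), which codes for a red-cell carbonic anhydrase, spanned over 14 kb. Its fold enrichment was 14.1, 16.0, 9.55, 17.0, 18.8, 13 and 15 over the 7 control libraries, from early-G1 to late-G1, whereas auxin gave 18.1, 24.7, 38.7, 36.3, 27.2, 27.3 and 26.1, with no overlap within a stage. The rank difference was 1.42 ± 0.21 (SE; adjusted p = 0.0043), and no region over the Car1 TSS was tested. An adjacent member (chr3:14804557-14808707), among the better ranked at a median fold enrichment of 35.5, differed by 0.61 ± 0.23 (adjusted p = 0.34). At Ankrd9, an ankyrin repeat protein gene, a member 12.2 kb upstream (chr12:112229419-112230799) had 4.73 and 6.30 in early-G1 control and 15.4 and 12.6 in early-G1 auxin, 9.22, 12.0 and 14.7 against 17.3, 22.7 and 14.7 in mid-G1, and 13.7 and 11.8 against 21.1 and 18.7 in late-G1. The rank difference was 1.11 ± 0.19 (SE; adjusted p = 0.010).

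Both that were lower lay upstream of their nearest coding TSS. At Srpk2 (chr5:23201902-23205321; 19.6 kb), the gene of a kinase of SR splicing factors, fold enrichment was 29.2 and 21.7 in early-G1 control and 15.5 and 16.8 in early-G1 auxin, 30.0, 26.2 and 33.9 against 26.2, 20.6 and 16.5 in mid-G1, and 17.7 and 33.2 against 13.7 and 10.8 in late-G1. The rank difference was -1.35 ± 0.28 (SE; adjusted p = 0.038). At Spsb2 (chr6:124743706-124747205; 11.5 kb), which codes for a ubiquitin ligase adaptor, early-G1 values were 33.3 and 36.4 in control and 36.9 and 33 in auxin, those of mid-G1 23.1, 30.8 and 43.3 against 26.6, 29 and 18.8, and those of late-G1 21.2 and 39.0 in control and 17.2 and 18.4 in auxin. In fold enrichment, control and auxin overlapped in early-G1 and mid-G1 there and did not in late-G1. On the rank, which the test used, they overlapped in early-G1 only. The mid-G1 ranks were 1178.5, 1035 and 853 in control and 3264.5, 3553 and 5517.5 in auxin. Within mid-G1 the rank difference of the Spsb2 member was -1.98 (adjusted p = 0.0074 by limma), and within late-G1 it was -0.79 (adjusted p = 0.63 by limma). Averaged over the 3 stages, its rank difference was -1.07 ± 0.20 (SE; adjusted p = 0.018). Both members also had a peak in all 4 prometaphase lists. The TSS regions of Ankrd9, Srpk2 and Spsb2 differed by -0.08, -0.14 and 0.34 with auxin (adjusted p of 0.94, 0.92 and 0.70). Leaving out any 1 of early-G1 auxin replicate 2, late-G1 control replicate 3 or late-G1 auxin replicate 1 removed both calls of a lower rank, and without early-G1 control replicate 2 neither was called while 1 other member was.

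**Figure D4:**
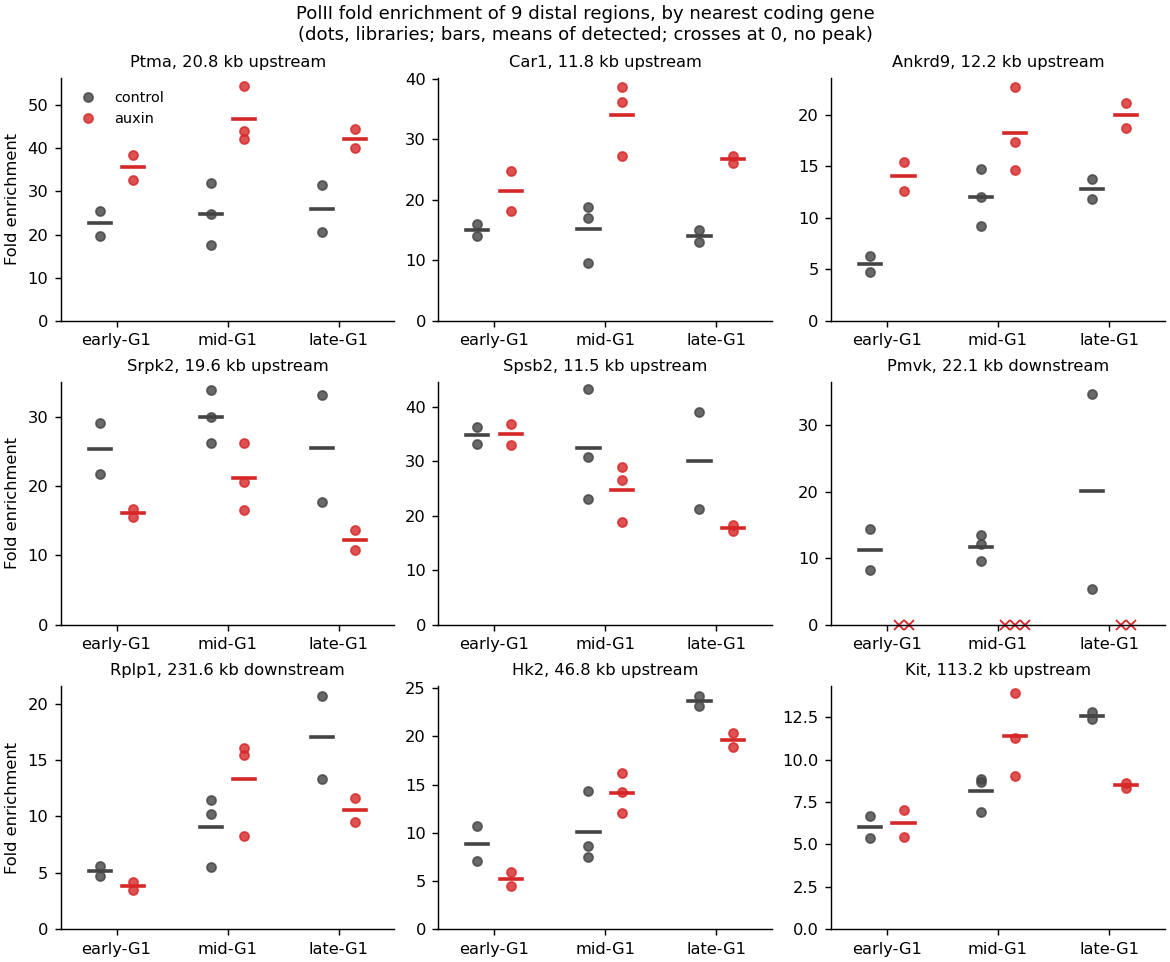
Fold enrichment (vertical axes) of 9 members by stage (horizontal axes), named by nearest coding gene and distance to its TSS. Dots are libraries of control (grey) and auxin (red), bars are means of the libraries with a peak and crosses at 0 mark libraries without a peak. The Ptma member lies higher in auxin at every stage, the Hk2 member is at 18.9 or above in late-G1, and the Pmvk member has a peak in each control library and in no auxin library.

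Members were found in more auxin than control lists more often than the reverse. The number of lists was equal for 746 members (48.9%), higher in auxin for 518 (34.0%) and higher in control for 261 (17.1%), beside 26.4% and 21.7% of all regions in 7 or more lists. The difference was 3 or more in favour of control for 34 members (2.23%, beside 3.48% of those regions) and in favour of auxin for 71 (4.66%, beside 3.18%). Mid-G1 control replicate 1, with 763 members, is among the 7 control lists, and its part in this was not tested. The member 22.1 kb from Pmvk (chr3:89285334-89285706), the gene of a kinase of the mevalonate pathway, was detected in 7 of 7 control and 0 of 7 auxin lists. Its fold enrichment was 14.4 and 8.30 in early-G1, 12.1, 9.54 and 13.5 in mid-G1 and 5.45 and 34.8 in late-G1, all in control. Among all 39416 regions, 9 (0.023%) were in 7 control lists and no auxin list and 11 (0.028%) the reverse. Members nearest to Etv6 (chr6:133958098-133958795), Agfg1 (chr1:82904790-82905125), Xrcc2 (chr5:25184286-25184990) and Tnfaip3 (chr10:18786261-18787021) were in 6, 6, 6 and 7 control and 2, 2, 2 and 3 auxin lists. In the other direction, a member nearest to Daf2 (chr1:132239015-132239492) was in 2 control and 7 auxin lists, and those at Rpia (chr6:70761617-70762296), Fmnl1 (chr11:103020289-103020775) and Sf3b5 (chr10:12706682-12707257) in 1 and 6. That at B3galnt2 (chr13:13981654-13982315) was in 3 and 7. These members were picked for the difference, so it is given without a test.

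Clusters of members made up the 3 largest loci. An 87.0-kb stretch upstream of Fut8, the core fucosyltransferase gene (chr12:78234932-78321955), held 18 members that covered 41.4 kb, with median fold enrichments between 4.74 and 8.87. Of these, 4 were in all 14 lists, and each of the 4 rose from early-G1 to late-G1, by 0.84 to 1.30. A 39.8-kb stretch between Dennd4b and Gatad2b as annotated in GENCODE vM1 (chr3:90095058-90134821) held 12 members. The first carried the RefSeq Gatad2b promoter and had a fold enrichment of 50.2, while the other 11 had 5.02 to 6.85. Those 11 lay between this promoter and the GENCODE vM1 TSS of Gatad2b, so they are inside the gene if it starts at the later promoter. Whether their PolII belongs to its transcription was not tested. The third, 12 members over 33.5 kb of chromosome 18 nearest to Vmn1r238, had summit windows mostly of repeated words in 9 members, and none of its 4 tested members passed the test in the stage contrast. Over all members, 57 (3.74%) had such windows, against 0.71% within genes.

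**Figure D5:**
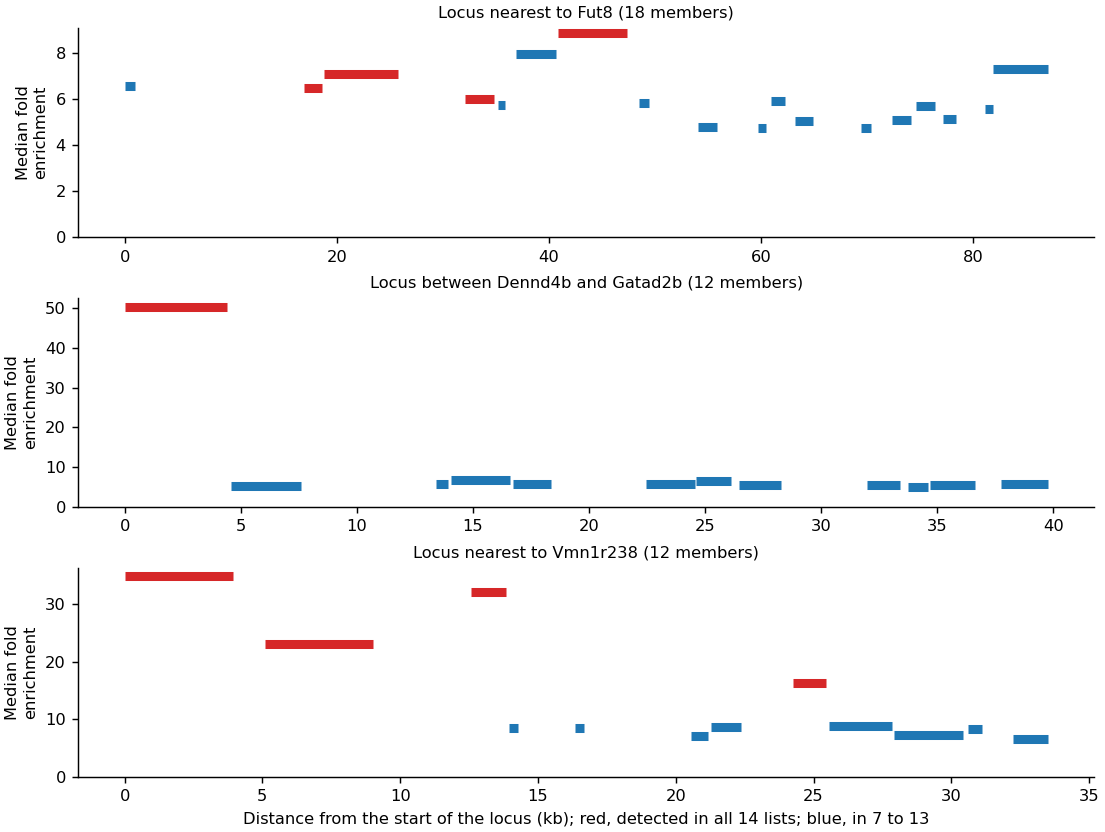
Median fold enrichment over the lists with a peak (vertical axes) of each member in the 3 loci with most members, against distance from the first member's start (horizontal axes, kb). Bar length is member width, and red marks detection in all 14 lists. In the second locus the first member is at 50.2 and the others are below 7.

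A pair of settings bears on the stage result. In addition, 50 to 117 members were called higher when any 1 library was left out, with the fewest without late-G1 auxin replicate 2 and the most without mid-G1 control replicate 1. With the rank turned into a normal score over each library's list, 2 members were called higher and 0 lower, with a median of -0.16 over all tested regions and -0.01 over members, against -0.03 and 0.30 in the test above, and calls in either direction over all tested regions went from 2329 to 69. With all 1525 members tested and absent regions placed after the last rank, 363 rose and 32 fell, beside 8.26% and 5.06% of 40263 regions.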

How the data were processed

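PolII ChIP-seq was analysed in 18 libraries of 22 samples, since the 4 inputs came without peak lists. Per the labels, the authors aligned reads with Bowtie2 2.2.9 to mm9, used SAMtools 0.1.19 and bedtools 2.27.1, and called narrow peaks in each library with MACS2 2.1.0. The deposited files give, for each peak, a fold enrichment (a ratio), a −log10 p and −log10 q value, a score and, in another column, the summit offset. They hold no counts of reads per region, so no count test was run. Summit pileups recovered from the deposited fold enrichment and p were whole within 0.05 in 100% of peaks.

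Regions were merged across the 14 post-mitotic lists in Python 3.11.15 and placed by GENCODE vM1. The highest fold enrichment of a region was ranked within its library. limma 3.58.1 (R 4.3.3) fitted 6 group means, and p-values were adjusted by Benjamini-Hochberg over all 15785 regions at 0.05, after a test on simulated data. The highest fold enrichment favours wide regions, and no spike-in sets levels between stages. RefSeq sequences (GRCm38) were matched by 32-base words, at 50% or more of a promoter's words.

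The members and gene lists were chosen with earlier results of these data known. Members were named as the 10 best ranked, those called with auxin (up to 10 per direction), the 5 per direction that changed most from early-G1 to late-G1, 5 found in most prometaphase lists, 10 near hematopoietic regulators, the 3 farthest from genes, the 3 largest loci and 5 per direction in list counts. Other members near Kit, Car1, Ikzf2, Gata2 and Myb were named after their values were seen. The alternatives covered peak threshold, joining, distance, list minimum, scale, absent regions, replicate block and left-out libraries.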

Additional observations from a re-analysis of the deposited data

How the results depend on the processing

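No called value of a named member changed sign under the alternatives, while 82 of 1374 recomputed values had the other sign, none of them called in the main test. The members' median early-G1 to late-G1 difference of 0.30 was -0.01 with a normal score of the rank. The number of members, 1525, was 879 at 20 kb from every gene, 2563 at 5 kb and 552 with detection in all 14 lists, and ran from 1410 to 1513 with any 1 library left out. Members called higher from early-G1 to late-G1, 89, were 51 with peaks within 1 kb joined, 2 with a normal score of the rank and 363 with absent regions placed last, and 50 to 117 with a library left out. Those called lower, 13, were 8, 0 and 32 under the same settings and 7 to 18 with a library left out. Counts of higher members fell by more than 1.5 times without early-G1 auxin replicate 1 (56) or 2 (59), late-G1 control replicate 2 (53), or late-G1 auxin replicate 1 (55) or 2 (50). Members called lower with auxin, 2, were 0 with joined peaks, 0 with the normal score, 5 on centred log2 fold enrichment and 5 with absent regions placed last, and 0 to 3 with a library left out. Those called higher with auxin, 3, were 0 with the normal score, 8 on fold enrichment and 11 with absent regions placed last, and 3 to 8 with a library left out. With the normal score, calls over all tested regions went from 2329 to 69. Joining left 476 members to test. The cause of these changes was not tested.

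Deviations of same-numbered control and auxin libraries correlated at 0.01 in early-G1 and late-G1 and at 0.10 to 0.29 in mid-G1, so pairing by number was not used, though it is not excluded for mid-G1. With the replicate block, 1 member was lower and 2 higher with auxin, the Spsb2 and Ankrd9 members no longer being called (adjusted p of 0.17 and 0.10 by limma), and 101 rose and 14 fell from early-G1 to late-G1. Leaving out members mostly of repeated words, or those with a later RefSeq promoter, was chosen after seeing the data and gave 89 and 81 higher and 13 lower each. Of the 1374 values, 1311 kept their side of the threshold, 55 lost and 8 gained a call. Depth limits the 973 members missing from at least 1 list, and a missing peak does not show that PolII was absent.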
